A study of Mus musculus with 34 samples.

Results

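The 9 genes described here write, erase or read 5-methylcytosine in DNA: the methyltransferases Dnmt1, Dnmt3a and Dnmt3b with the maintenance cofactor Uhrf1, the dioxygenases Tet1, Tet2 and Tet3, and the methyl-CpG-binding proteins Mbd1 and Mbd2. They were taken from the table by gene symbol, and all 9 were found among 20613 genes with values. Polyadenylated RNA was sequenced from astrocytes isolated with magnets from the cortex of wild-type (WT) male mice, in 34 libraries at 9 ages. There were 4 libraries each at postnatal days 7 and 14 (P7 and P14), 3 each at P21, P28 and P60, 5 each at 3 and 6 months of age (3m and 6m), 3 at 12m and 4 at 18m. All groups shared the WT genotype, the male sex and the tissue, and the labels give no treatment. The labels do not name the surface marker used for isolation and do not tell whether animals were pooled or each gave a library of its own. The p-values therefore measure the spread between these libraries, which may be technical.

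In mammalian DNA, methyl groups sit mostly on cytosines followed by guanine (CpG). Dnmt3a and Dnmt3b place them on unmethylated sites, while Uhrf1 recognises the hemimethylated CpG left behind a replication fork and recruits Dnmt1, which copies the mark to the new strand. Tet enzymes oxidise the methyl group, a step toward its removal, and proteins with a methyl-CpG-binding domain recognise the mark and bring corepressor complexes to it. In the brain, Dnmt3a is known as the main de novo enzyme after birth, and oxidised methylcytosine is abundant in neural tissue.

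Levels are in TPM, the share of a gene's transcripts in its library corrected for gene length and scaled to the same sum everywhere, which leaves read depth unknown. The astrocyte label was checked with 20 markers, all of which passed the filter for testing. Their mean level in log2(TPM + 1) lay between 9.21 at P7 and 9.91 at P28. Transcripts of other cells were present: 12 neuron markers summed to 60.04 to 83.9 TPM at P7, 317 to 618 at P60, 160 to 584 at 3m and 79.7 to 165 at 18m. Oligodendrocyte markers summed to 447 to 524 TPM at P7, when the myelin gene Mobp was listed at 0 in each library. They summed to 1431 to 2669 TPM at P60, 498 to 2263 at 3m and 265 to 1666 at 18m. Erythroid markers summed to 7632 to 10604 TPM at P7 and 36270 to 67757 at P21. At P60, 3m and 18m they summed to 3529 to 9720, 4302 to 8865 and 8918 to 35088 TPM. Endothelial markers summed to 1387 to 1984 TPM at P7, 964 to 1580 at P60 and 1128 to 2960 at 18m. Pericyte and mural markers summed to 2351 to 3630, 2733 to 5227 and 3167 to 5804 TPM at those ages. The number of genes listed at 0 fell into separate ranges: 4109 to 4819 in 14 libraries (all of P7, P14 and 18m, and 12m replicates 1 and 2), 2854 to 3523 in the 9 libraries of P21, P28 and P60, and 1155 to 1704 in 11 (all of 3m and 6m, and 12m replicate 3). Library 18m replicate 1 was the lowest of its age for 8 of the 9 genes and the lowest of all 34 libraries for 7. In bulk RNA, fewer cells of a type and less RNA per cell cannot be told apart.

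All 9 genes were detected at every age, from Dnmt3b at 2.04 TPM to Mbd2 at 45.1 TPM averaged over the 34 libraries. Dnmt3a (15.9 TPM), Tet1 (15.8), Tet2 (15.1) and Mbd1 (17.6) had similar means over the libraries, as did Dnmt1 (5.78), Tet3 (5.77) and Uhrf1 (4.92). Mbd2 differed most between ages, 3.46-fold between its highest mean at 3m and its lowest at P60. Uhrf1 followed with 2.58-fold between P7 and 18m, and Mbd1 differed least, 1.27-fold between P7 and P21. In an F test over the 9 ages (limma on log2(TPM + 1), Benjamini-Hochberg adjustment over 14590 genes), 6 of the 9 genes passed an adjusted p of 0.05, where 63.6% of all tested genes did. They were Mbd2 (adjusted p = 1.19e-05), Uhrf1 (0.000215), Dnmt1 (0.000496), Dnmt3a (0.00425), Tet2 (0.0132) and Tet3 (0.0228). Tet1 (0.0816), Dnmt3b (0.327) and Mbd1 (0.335) did not pass.

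**Figure D1:**
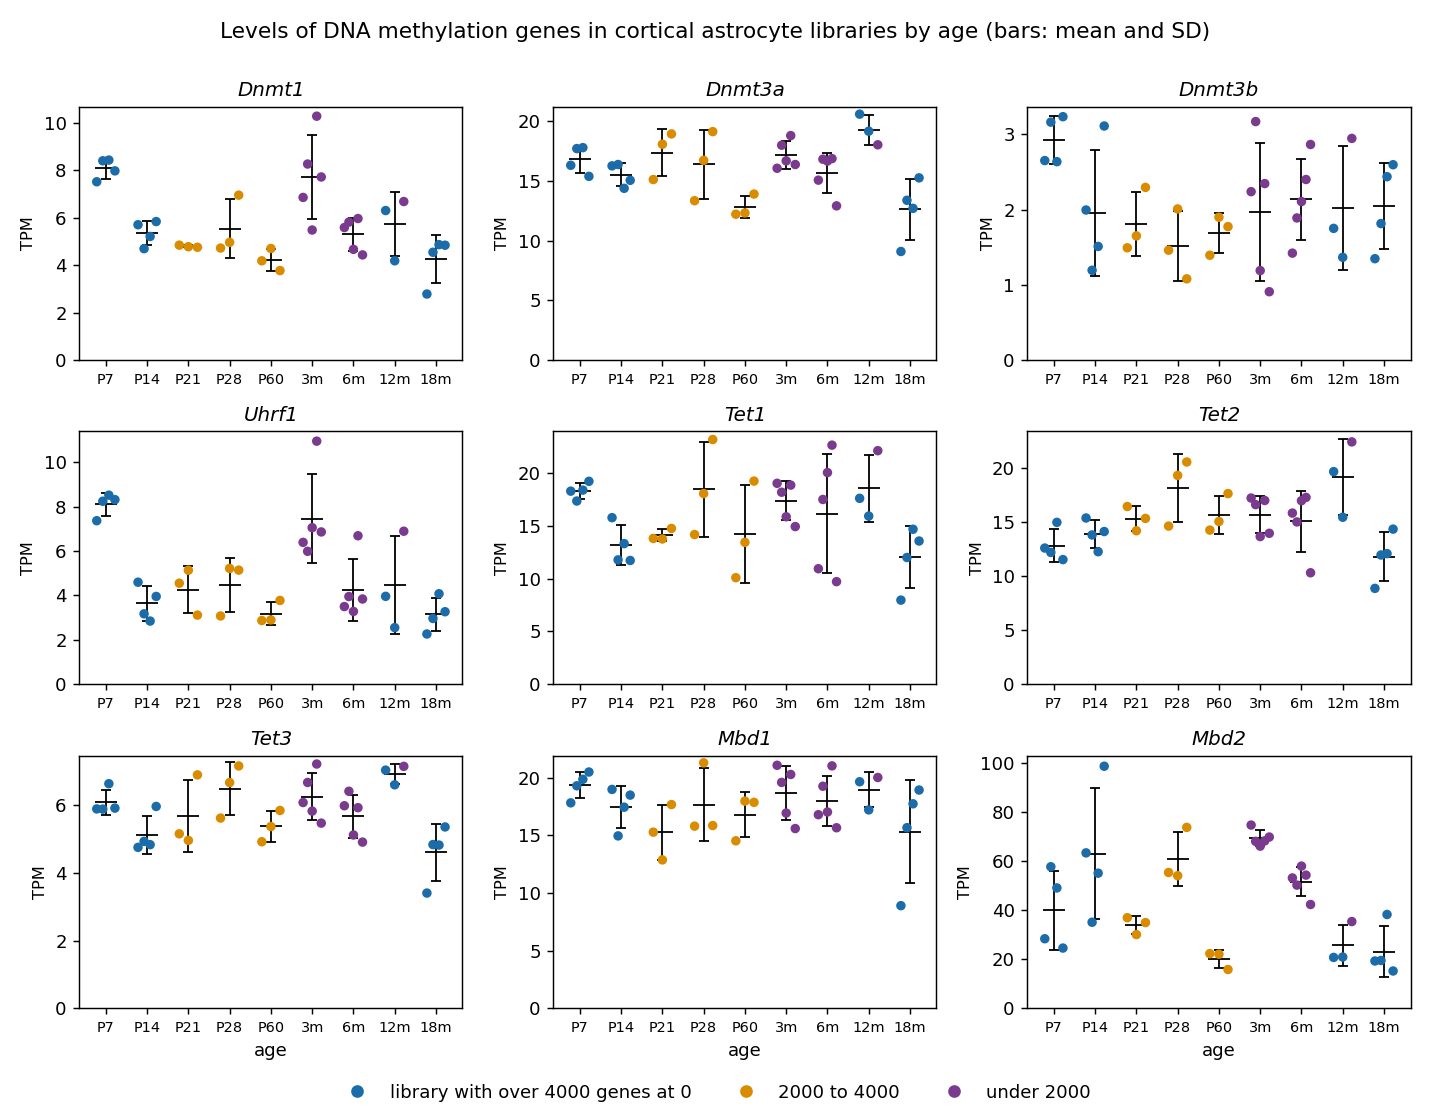
TPM of each of the 9 genes against age, with 1 point per library, the mean and SD as bars, and the colour giving the range of the number of genes listed at 0 in that library. Dnmt1 and Uhrf1 are high at P7 and 3m, Mbd2 spans 15.2 to 98.8 TPM, and the vertical axes start at 0 and differ between genes.

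The maintenance pair, Uhrf1 and Dnmt1, shared a course with age: high at P7, lower from P14 to P60, high again at 3m and lower after that. Uhrf1 stood at 7.37, 8.25, 8.52 and 8.32 TPM at P7, at 4.60, 3.17, 2.84 and 3.95 at P14, and at 2.87, 2.90 and 3.77 at P60. It stood at 6.39, 5.99, 7.05, 10.96 and 6.86 TPM at 3m, at 3.50, 3.95, 3.28, 6.69 and 3.84 at 6m, and at 2.26, 2.96, 4.07 and 3.26 at 18m. All 4 libraries at P7 lay above all libraries at P14, P60 and 18m, and all 5 at 3m lay above those of P60 and 18m, while 1 library of 6m reached into the range of 3m. At 12m its libraries were spread from 2.55 to 6.90 TPM, with the highest value in replicate 3, the 12m library with few genes at 0.

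Dnmt1 stood at 7.52, 8.40, 8.43 and 7.98 TPM at P7, at 5.70, 4.69, 5.21 and 5.84 at P14, and at 4.18, 4.70 and 3.77 at P60. At 3m its libraries read 6.85, 8.26, 5.48, 10.3 and 7.72 TPM, at 6m 5.58, 5.81, 4.66, 5.96 and 4.43, and at 18m 2.78, 4.54, 4.86 and 4.84. The groups of P7 and of 3m did not overlap those of P60 or 18m. Ordered by mean, each age overlapped the next in the order, from P7 (8.08 TPM) and 3m (7.72) through 12m, P28, P14, 6m and P21 to 18m (4.26) and P60 (4.22). Replicate 4 of 3m was the highest of all 34 libraries for both Uhrf1 and Dnmt1.

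These 2 genes are shown with the sequence before a start site because they moved together and are known targets of E2F factors, which drive genes of DNA replication. Of the 9 genes, 7 matched the RefSeq promoter table (GRCm38.p6), and the 250 bases before each start were searched on both strands for E2F strings (TTTCCCGC, TTTCGCGC, TTTGCCGC, TTTGGCGC) and for the cell cycle element TTTGAA. An E2F string stood in 1 of 2 Uhrf1 promoters and 1 of 3 Dnmt1 promoters and in none of the other 5 genes' promoters, compared with 1.86% of 32851 promoters of that length. TTTGAA, held by 16% of those promoters, stood in 1 Dnmt1 promoter and in the Dnmt3b promoter. The Uhrf1 promoter with the match, chr17:56304063-56304312 on the plus strand, held 30 CpG pairs, more than 94.1% of the promoters searched, whose median was 6. The match, with 177 bases between it and the start, is in capitals in the sequence, which is followed by 30-base windows around the matches of both genes (Uhrf1 chr17:56304117-56304146, plus strand, and Dnmt1 chr9:20952824-20952853, minus strand, where the string lies on the opposite strand to the gene).
Uhrf1 promoter: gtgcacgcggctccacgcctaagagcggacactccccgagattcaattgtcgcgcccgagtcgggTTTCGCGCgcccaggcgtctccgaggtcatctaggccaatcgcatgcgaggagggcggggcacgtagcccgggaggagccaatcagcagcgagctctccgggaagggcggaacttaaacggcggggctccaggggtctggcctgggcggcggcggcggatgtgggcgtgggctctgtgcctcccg
Uhrf1 window: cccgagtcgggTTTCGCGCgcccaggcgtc
Dnmt1 window: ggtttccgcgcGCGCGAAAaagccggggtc
Such a match describes letters and is no measure of binding. Every E2F string searched holds a CG pair, and the Dnmt1 promoter with the match held 26 such pairs, more than 90.4% of the promoters. The 1.86% is a share of promoters of any CpG content, and some of the genes had more than 1 promoter searched. Enrichment of E2F strings was therefore not tested. The Uhrf1 gene spans chr17:56303321-56323486 on the plus strand and Dnmt1 chr9:20907209-20959888 on the minus strand (GRCm38), so both windows lie inside the annotated genes.

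Development was compared as P60 vs P7 and aging as 18m vs 3m, and the ends of the series as 18m vs P7. No P60 library shared a range of genes at 0 with a P7 library, so that number and age cannot be told apart in P60 vs P7. At P7 Uhrf1 averaged 8.11 ± 0.510 TPM (SD, n = 4), and at P60 it had fallen to 3.18 ± 0.515 (SD, n = 3), a log2 fold change of -1.13 with an SE of 0.23 (limma adjusted p = 0.000404). Dnmt1 fell from 8.08 ± 0.430 TPM (SD, n = 4) to 4.22 ± 0.466 (SD, n = 3), by 0.80 ± 0.17 on the log2 scale (SE; limma adjusted p = 0.00053). Most of this difference was present at P14, when Uhrf1 had fallen 2.23-fold (limma adjusted p = 0.00572) and Dnmt1 1.51-fold (limma adjusted p = 0.0325). The Dnmt1 call at P14 was lost on leaving out any of 7 of the 8 libraries compared, with adjusted p up to 0.0931, and the Uhrf1 call was not. With covariates for neuron and oligodendrocyte transcripts, Uhrf1 in P60 vs P7 was -0.52 (limma adjusted p = 0.192).

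Both genes were higher at 3m than at P60, Uhrf1 2.34-fold (limma adjusted p = 0.00406) and Dnmt1 1.83-fold (limma adjusted p = 0.0044). The 3m and P60 libraries lay in different ranges of genes at 0, and with a term for that number neither call was made (Uhrf1 0.51 on the log2 scale, limma adjusted p = 0.305; Dnmt1 0.48, 0.201). From 3m to 6m Uhrf1 fell 1.75-fold (limma adjusted p = 0.0231) and Dnmt1 1.46-fold (limma adjusted p = 0.0388). All 3m and 6m libraries lay in the same range of genes at 0, but with only those ages in the fit neither gene passed (adjusted p = 0.114 for Uhrf1 and 0.174 for Dnmt1). The Uhrf1 call was lost without 3m replicate 4 or 6m replicate 1 (adjusted p up to 0.0712), and that of Dnmt1 without 3m replicate 2, 4 or 5 or 6m replicate 1, 3 or 5 (up to 0.12). In the aging comparison, 18m vs 3m, Uhrf1 fell 2.37-fold to 3.14 ± 0.752 TPM (SD, n = 4), or -1.02 on the log2 scale with an SE of 0.20 (limma adjusted p = 0.000441). Dnmt1 fell 1.81-fold to 4.26 ± 0.995 TPM (SD, n = 4), or -0.73 with an SE of 0.15 (limma adjusted p = 0.000546). No 18m library shared a range of genes at 0 with a 3m library, so that number and age cannot be told apart there. Against P7, which lay in the same range, 18m was lower 2.58-fold for Uhrf1 (limma adjusted p = 0.000244) and 1.90-fold for Dnmt1 (limma adjusted p = 0.000392). At 18m and P60 the levels were close: the difference was -0.02 for Uhrf1 (95% interval -0.50 to 0.45) and -0.01 for Dnmt1 (-0.35 to 0.34) on the log2 scale.

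Genes of replication and mitosis moved in the same comparisons. Of 32 cell cycle genes, all 32 fell from P7 to P60, 28 fell from 3m to 18m, all 32 were lower at 18m than at P7, and limma called none in 18m vs P60 (0 at an unadjusted p under 0.05). Of all tested genes, 33.3%, 33.4% and 24.9% were lower in the first 3 comparisons and 13.8% were called in the last, and the list's median log2 difference was -1.41, -1.20, -1.36 and 0.03. Their mean level in log2(TPM + 1) was 3.73 at P7, 2.89 at P14 and 2.32 at P60. It was 3.57 at 3m, 2.75 at 6m and 2.36 at 18m. Aurkb, a mitotic kinase, averaged 16.8 TPM at P7, 2.97 at P60, 16.3 at 3m and 3.39 at 18m. Rrm2, a subunit of ribonucleotide reductase, averaged 32.9, 10.7, 30.6 and 9.13 TPM at those ages. The libraries highest for Uhrf1 at 3m and 6m, replicate 4 of each, were also the highest of their ages for the cell cycle mean, at 3.97 and 3.26. Across the 34 libraries, which share ages and scaling, Pearson's r between the cell cycle mean and the log2 level was 0.889 for Uhrf1, 0.851 for Dnmt1, 0.410 for Dnmt3a and -0.005 for Tet2. After each age's mean was taken away it was 0.796 for Uhrf1, 0.498 for Dnmt1 and 0.227 for Dnmt3a. The part that dividing cells of any type had in the levels of Uhrf1 and Dnmt1 was not tested.

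Markers of fibroblasts and meningeal cells also differed between these ages. Of 7 such genes, 6 fell from P7 to P60 and 3 from 3m to 18m, 5 were lower at 18m than at P7, and limma called none in 18m vs P60 (1 at an unadjusted p under 0.05). They summed to 485 to 782 TPM at P7, 206 to 267 at P60, 291 to 672 at 3m and 283 to 381 at 18m, and each of the 7 had a mean above 0 at these ages. Col3a1, a fibrillar collagen gene, averaged 22.1 TPM at P7, 2.81 at P60, 20.7 at 3m and 5.39 at 18m. Pearson's r between the mean log2 level of these markers and that of the gene across the 34 libraries was 0.724 for Uhrf1 and 0.633 for Dnmt1, and 0.531 and 0.187 after each age's mean was taken away. Ependymal and choroid markers gave 0.262 and 0.096 across the libraries for Uhrf1 and Dnmt1, and 0.662 and 0.407 after that step. Oligodendrocyte precursor markers gave -0.084 and -0.186, then 0.594 and 0.471. Neuron markers gave -0.246 and -0.174, then -0.527 and -0.207. The part of any of these cells in the levels of Uhrf1 and Dnmt1 was not tested.

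**Figure D2:**
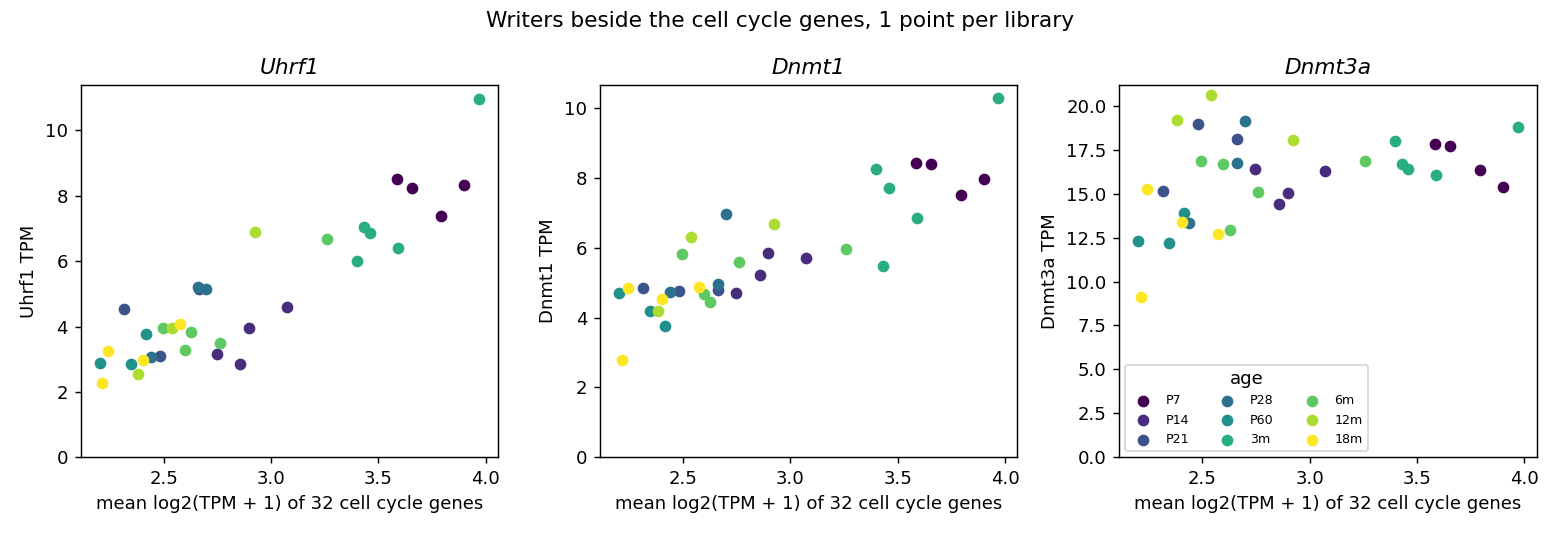
TPM of Uhrf1, Dnmt1 and Dnmt3a (vertical axes, from 0) against the mean log2(TPM + 1) of 32 cell cycle genes, with 1 point per library coloured by age. The P7 and 3m libraries lie to the right in each panel and high for Uhrf1 and Dnmt1, while Dnmt3a is at similar levels over most of the horizontal axis.

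The de novo methyltransferases had another course. Dnmt3a stood at 16.3, 17.7, 17.8 and 15.4 TPM at P7, at 12.2, 12.3 and 13.9 at P60, and at 16.1, 18.0, 16.7, 18.8 and 16.4 at 3m. It was highest at 12m, with 20.6, 19.2 and 18.0 TPM, and stood at 9.09, 13.4, 12.7 and 15.3 at 18m. P60 and 18m were the low ages and overlapped each other, and every other age had its mean between 15.5 and 19.3 TPM. Dnmt3a fell 1.31-fold from P7 to P60 (limma adjusted p = 0.0204), was 1.34-fold higher at 3m than at P60 (limma adjusted p = 0.039) and fell 1.36-fold from 3m to 18m (limma adjusted p = 0.00414). Of these differences none passed after rescaling of the libraries by median of ratios, with adjusted p of 0.0769, 0.0925 and 0.0524. The P60 vs P7 call was also lost without P60 replicate 1 or 2, with adjusted p up to 0.0706, and the 3m vs P60 call without any 1 of the P60 libraries or 3m replicate 2, 3 or 4, with adjusted p up to 0.139. The step from 12m to 18m was larger, 1.53-fold lower at 18m (-0.59 on the log2 scale with an SE of 0.13; limma adjusted p = 0.00477), and passed after rescaling (-0.36; limma adjusted p = 0.0144).

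Dnmt3b, which acts mainly in the early embryo, was the lowest of the 9 genes and passed in none of the 12 comparisons. It stood at 2.65, 3.16, 2.64 and 3.24 TPM at P7 and at 1.39, 1.90 and 1.77 at P60, groups that did not overlap. Their log2 difference was -0.55 (95% interval -1.03 to -0.07; limma adjusted p = 0.0513). That difference passed with quantile normalization (adjusted p = 0.0123), array weights (0.0201), a term for genes at 0 (0.0473) and only those ages in the fit (0.00754). At 3m its libraries ranged from 0.907 to 3.17 TPM and at 18m from 1.35 to 2.60, and the interval of that log2 difference ran from -0.35 to 0.50. Dnmt3a spans chr12:3806007-3914443 on the plus strand and shares 0.799% of its exonic bases with the antisense gene Dnmt3aos, whose reads cannot be told apart without strand. Whether the counting used strand is not given in the sources used here.

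Among the Tet enzymes, none passed in P60 vs P7, where limma called 52.8% of all tested genes (0 of the 3 at an unadjusted p under 0.05), and all 3 fell from 3m to 18m, where it called 37.5%. Tet1 stood at 18.3, 17.3, 18.4 and 19.2 TPM at P7 and at 10.1, 13.4 and 19.2 at P60. Its 3m libraries read 19.0, 18.2, 15.8, 18.8 and 14.9 TPM and its 18m libraries 7.95, 12.0, 14.7 and 13.5. The P7 and P60 groups overlapped, though their difference passed with array weights (-0.36; limma adjusted p = 0.0332) and a term for genes at 0 (limma adjusted p = 0.0495), and the 3m group lay above the 18m group by a narrow margin. Tet1 fell 1.44-fold from 3m to 18m (limma adjusted p = 0.0374) and was 1.52-fold lower at 18m than at P7 (limma adjusted p = 0.0304). The 18m vs P7 call was lost after rescaling by median of ratios (-0.35; limma adjusted p = 0.12), with quantile normalization (limma adjusted p = 0.129) and without P7 replicate 1, 3 or 4 or 18m replicate 1 or 2 (adjusted p up to 0.144). At 6m its libraries were spread widely, from 9.70 to 22.6 TPM, with replicates 1 and 5 at 10.9 and 9.70.

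Tet2 was the only 1 of the 9 genes with a higher mean at P60 than at P7. It stood at 12.6, 12.2, 15.0 and 11.5 TPM at P7 and at 14.3, 15.1 and 17.7 at P60, a log2 difference of 0.27 that did not pass (limma adjusted p = 0.151). After rescaling by median of ratios it did pass, at 0.44 ± 0.11 on the log2 scale (SE; limma adjusted p = 0.00275), as it did with quantile normalization (0.0101) and array weights (0.0375). At 12m it reached 19.7, 15.5 and 22.5 TPM, its highest mean, and at 18m it stood at 8.88, 12.0, 12.1 and 14.4, below every 12m library. Tet2 fell 1.62-fold over that step (-0.66 on the log2 scale with an SE of 0.16; limma adjusted p = 0.0069), and by -0.42 after rescaling (limma adjusted p = 0.0166), but with array weights the difference was -0.40 and did not pass (limma adjusted p = 0.109). It shares 0.255% of its exonic bases with an antisense gene.

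Tet3, the lowest of the Tet enzymes, stood at 7.03, 6.60 and 7.14 TPM at 12m and at 3.40, 4.84, 4.82 and 5.36 at 18m, groups without overlap. It fell 1.504-fold over that step (limma adjusted p = 0.00883), and passed after rescaling (limma adjusted p = 0.0347) but not without 18m replicate 1 (limma adjusted p = 0.0534), with quantile normalization (-0.22; limma adjusted p = 0.181) or with array weights (limma adjusted p = 0.0605). From 3m to 18m Tet3 fell 1.36-fold (limma adjusted p = 0.0106) and Tet2 1.33-fold (limma adjusted p = 0.027). The 18m vs 3m differences of all 3 Tet genes did not pass after rescaling, with adjusted p of 0.136 for Tet1, 0.208 for Tet2 and 0.114 for Tet3. They also did not pass without 18m replicate 1, the library lowest for most of the 9 genes, with adjusted p of 0.208, 0.159 and 0.0796. Without 3m replicate 1, 2 or 4 the calls of Tet1 and Tet2 were lost too.

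Of the readers, Mbd2 had the largest differences of the 9 genes. It stood at 28.4, 57.8, 49.1 and 24.6 TPM at P7, at 63.4, 35.1, 55.1 and 98.8 at P14, at 37.0, 30.1 and 34.97 at P21, and at 55.4, 54.1 and 73.8 at P28. The P60 libraries read 22.3, 22.1 and 15.8 TPM, those of 3m 74.8, 68.1, 66.2, 68.3 and 69.9, and those of 6m 53.2, 50.3, 58.03, 54.3 and 42.4. At 12m it was at 20.8, 20.9 and 35.4 TPM, the highest in replicate 3, the 12m library with few genes at 0. At 18m it was at 19.3, 19.5, 38.3 and 15.2 TPM. The 5 libraries at 3m lay above all libraries of P60, 6m, 12m and 18m, P60 lay below every library of P7, P14, P21, P28, 3m and 6m, and the spread within P7 and P14 was wide.

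Mbd2 was 3.46-fold higher at 3m than at P60 (1.76 on the log2 scale with an SE of 0.27; limma adjusted p = 9.81e-05) and fell 3.01-fold from 3m to 18m (-1.63 on that scale with an SE of 0.25; limma adjusted p = 3.72e-05). Both passed after rescaling by median of ratios, at 1.59 and -1.39. No 18m library shared a range of genes at 0 with a 3m library, and with a term for that number the 18m vs 3m difference was -0.81 and did not pass (limma adjusted p = 0.394). It fell 3.04-fold from P28 to P60 (limma adjusted p = 0.0115), ages in the same range of genes at 0, a call lost without P28 replicate 2 or 3 or P60 replicate 2 or 3 (adjusted p up to 0.1). From P7 to P60 it fell 1.99-fold (limma adjusted p = 0.011), a call lost without P7 replicate 2 or P60 replicate 3 (adjusted p up to 0.0618) and with covariates for neuron and oligodendrocyte transcripts (-0.59; limma adjusted p = 0.297). The 18m vs P7 groups overlapped, and that call, 1.73-fold lower (limma adjusted p = 0.0293), was lost after rescaling (limma adjusted p = 0.14) and without P7 replicate 2 or 3 or 18m replicate 1, 2 or 4 (adjusted p up to 0.125).

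Mbd1 was the steadiest of the 9 genes and passed in none of the 12 comparisons. Its means lay between 15.3 TPM at P21 and 19.4 at P7, and its libraries between 8.89, in 18m replicate 1, and 21.3, in P28 replicate 2. In 18m vs 3m the log2 difference was between -0.43 and -0.09 when each library was left out in turn, and it passed without 18m replicate 3 or 4 (lowest limma adjusted p = 0.0307). Mbd1 and Mbd2 both lie on chromosome 18.

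Counted over the 9 genes, 4 fell from P7 to P60 and none was higher, beside 52.8% of all tested genes called in that comparison, with 33.3% of the tested genes called lower. From 3m to 18m 7 of 9 fell, beside 37.5% of all tested genes called and 33.4% called lower. In 18m vs P7 6 of 9 were lower, beside 29.6% called and 24.9% called lower. In 18m vs P60 limma called none of the 9, beside 13.8% of all tested genes, and Tet2 was the only one with an unadjusted p under 0.05. The median log2 difference of the 9 genes was -0.38 in P60 vs P7, -0.44 in 18m vs 3m and -0.41 in 18m vs P7, while that of all tested genes was -0.15, -0.24 and -0.20. These comparisons share samples at P7, P60, 3m and 18m, so their counts are not independent of each other.

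Rescaling by median of ratios moved the median over all tested genes to 0.01, -0.02 and 0.03, and the share of called genes that were lower from 63.1% to 43.1% in P60 vs P7, from 88.9% to 51.9% in 18m vs 3m and from 84.2% to 45.7% in 18m vs P7. After it, 3 of the 9 genes were lower in 18m vs 3m (Dnmt1, Uhrf1 and Mbd2), beside 19.0% of all tested genes, and 2 in 18m vs P7 (Dnmt1 and Uhrf1), beside 9.14%. In P60 vs P7 3 were lower (Dnmt1, Uhrf1 and Mbd2), beside 21.4%, and Tet2 was higher, beside 28.3%. Without 18m replicate 1, 4 of 9 genes fell in 18m vs 3m (Dnmt1, Dnmt3a, Uhrf1 and Mbd2), beside 3471 of all 14590 tested genes called. The same omission left 2 of 9 in 18m vs P7, where leaving out each library in turn gave 2989 to 4456 calls over all genes. With each library's count of genes at 0 added to the model, none of the 9 passed in 18m vs 3m, and of all genes 297 did.

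**Figure D3:**
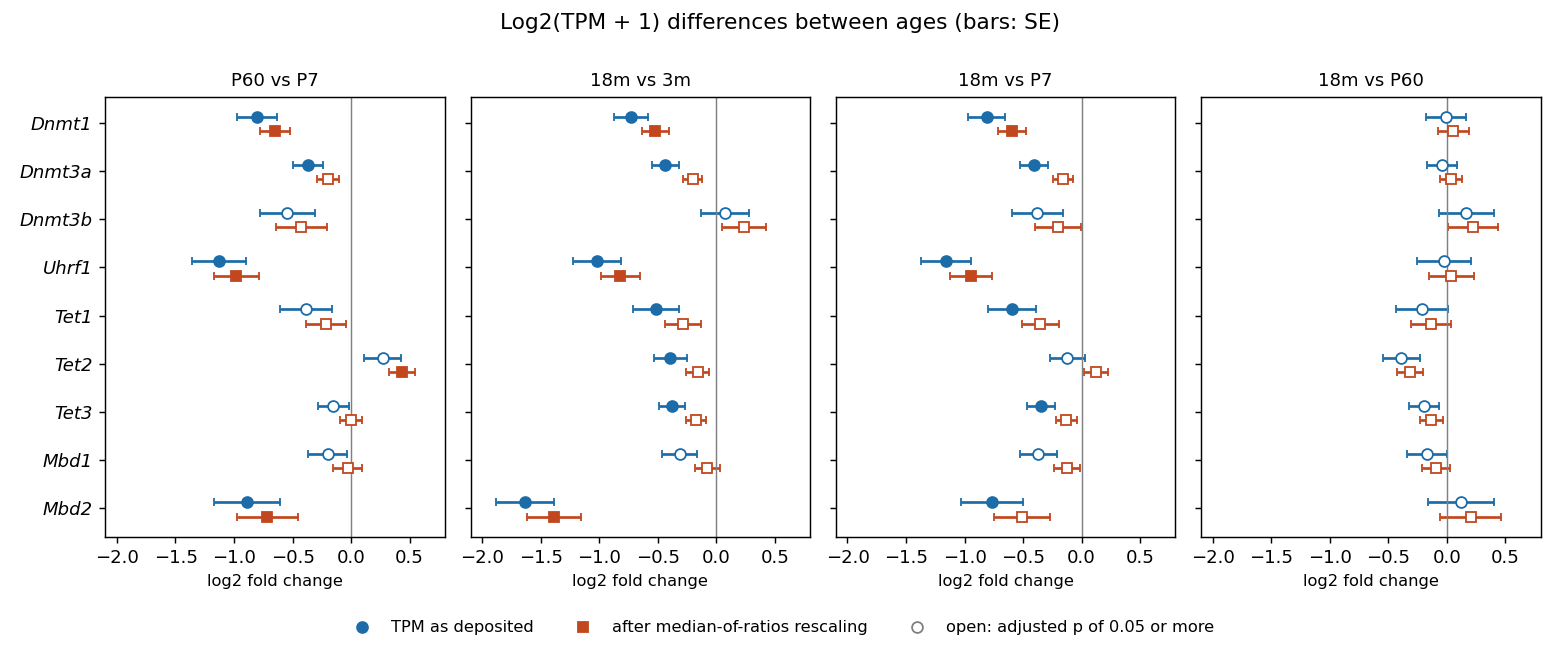
Log2 fold change on the log2(TPM + 1) scale with its SE for each of the 9 genes in 4 comparisons, as deposited (circles) and after median-of-ratios rescaling (squares), filled where the adjusted p is under 0.05. Uhrf1 and Dnmt1 stay filled in the first 3 panels under both scalings, Tet1, Tet2 and Tet3 lose their 18m vs 3m calls, and no symbol is filled in 18m vs P60.

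Between neighbouring ages, 2 of the 9 genes fell from P7 to P14 (Uhrf1 and Dnmt1), beside 11.8% of all tested genes called and 8.57% called lower, and 1 fell from P28 to P60 (Mbd2), beside 1.12% and 0.905%. From P60 to 3m 4 rose (Dnmt1, Dnmt3a, Uhrf1 and Mbd2), beside 10.2% called and 8.26% called higher. From 3m to 6m 2 fell (Dnmt1 and Uhrf1), beside 9.32% called and 7.25% called lower, and from 12m to 18m 3 fell (Dnmt3a, Tet2 and Tet3), beside 20.2% called and 18.6% called lower. Limma called none of the 9 in P21 vs P14, P28 vs P21 or 12m vs 6m, beside 13.2%, 0.0206% and 0.0548% of all tested genes. At an unadjusted p under 0.05 there were 1, 1 and 3 of the 9 in those steps, Mbd2 in each and Dnmt3a and Tet2 in 12m vs 6m. In the 12m to 18m step, the calls of Dnmt3a, Tet2 and Tet3 were also made without 12m replicate 3, the 12m library outside the range of genes at 0 of the others. This was in a fit of libraries of that range (limma adjusted p = 0.0155, 0.0391 and 0.0386). The setting was chosen after seeing the data and left only replicates 1 and 2 at 12m. With only the 12m and 18m libraries in the fit none of them passed (adjusted p = 0.105, 0.0996 and 0.128).

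TPM also allow the balance within each family to be read, since they are corrected for length. Dnmt3a made up most methyltransferase transcripts at every age, from 60.4% of the sum of Dnmt1, Dnmt3a and Dnmt3b at P7 to 72.4% at P21. Dnmt1 made up 29.1% at P7 and 28.5% at 3m and between 20.1% and 23.6% at the other ages. Among the Tet enzymes, Tet1 made up 49.2% and Tet2 34.4% at P7, while at later ages Tet1 lay between 39.7% and 44.1% and Tet2 between 40.0% and 44.9%. Tet3 made up 15.2% to 16.3% throughout. Of the sum of Mbd1 and Mbd2, Mbd2 made up 78.8% at 3m and 54.3% at P60. These shares are descriptions and were not tested.

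**Figure D4:**
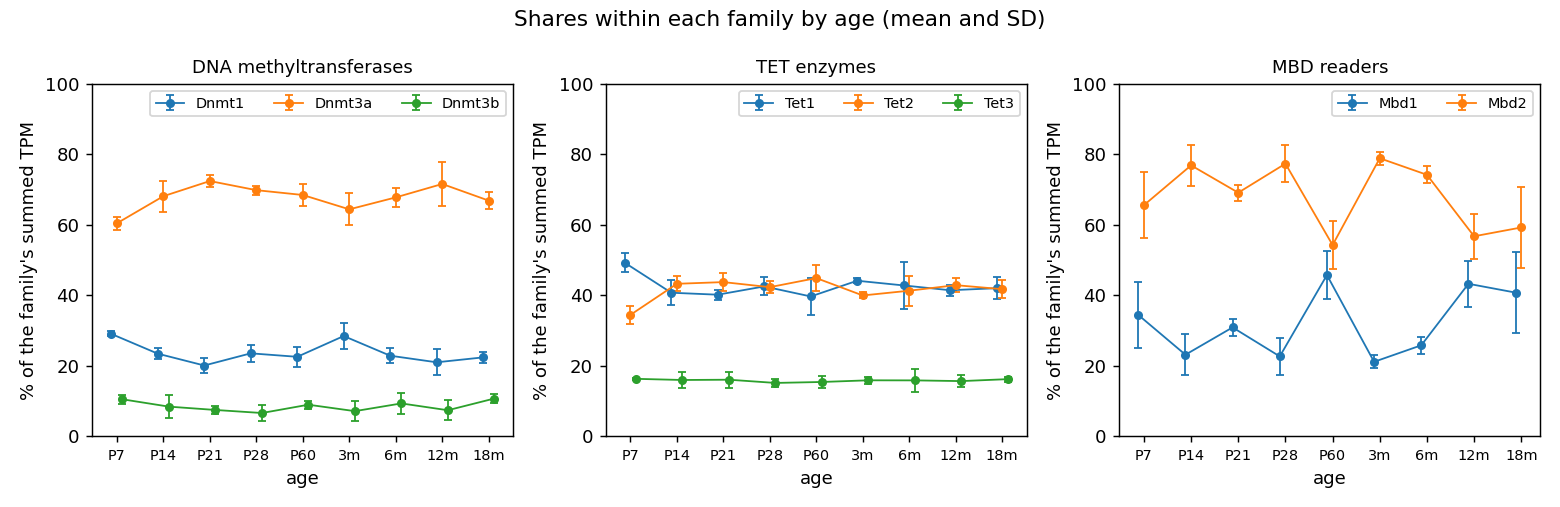
Share of each gene in the summed TPM of its family at each age, as the mean over libraries with its SD, for Dnmt1, Dnmt3a and Dnmt3b, for Tet1, Tet2 and Tet3, and for Mbd1 and Mbd2. P7 is the age at which the shares of Tet1 and Tet2 lie farthest apart, and the share of Mbd2 is lowest at P60 and highest at 3m.

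Other genes of the pathway were described by lists. Of all tested genes, 33.3% were lower and 19.5% higher in P60 vs P7, and 33.4% were lower and 4.16% higher in 18m vs 3m. After rescaling by median of ratios, 21.4% were lower and 28.3% higher in P60 vs P7. In 18m vs 3m 19.0% were then lower, and 2564 of the 14590 tested genes were higher. List counts near or below the share of all tested genes in the same fit are not results about the list. A list of other writers and cofactors, which also holds general replication genes such as Pcna and Lig1, had 11 tested genes. Of these, 7 fell and none rose from P7 to P60 (list median log2 -0.60, all tested genes -0.15). From 3m to 18m 6 fell and 1 rose (-0.34, all tested genes -0.24). Ezh2, the polycomb histone methyltransferase, fell from 20.1 to 8.96 TPM from P7 to P60 (limma adjusted p = 0.000145), and Pcna, the replication clamp that tethers Dnmt1, from 108 to 64.2 (limma adjusted p = 0.000367). Hells, a chromatin remodeller needed for DNA methylation, fell from 2.28 to 1.04 TPM from P7 to P60 and from 2.22 at 3m to 0.951 at 18m (limma adjusted p = 0.000786 and 0.000217), as did Cdca7l, a relative of its activator Cdca7, from 3.62 to 1.23 and from 2.81 to 1.28. Usp7, a deubiquitinase that acts on Dnmt1 and Uhrf1, fell from 24.0 TPM at 3m to 13.3 at 18m and Cdca7 from 19.2 to 12.7. After rescaling the counts were 6 lower and none higher in P60 vs P7, and 3 lower and 2 higher in 18m vs 3m.

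Of 17 tested genes of active demethylation and base excision repair, 9 fell and 2 rose from P7 to P60 (list median log2 -0.42). Tdg, the glycosylase that removes oxidised methylcytosine, fell from 49.0 to 22.1 TPM (limma adjusted p = 0.000266). Apex1, an abasic site endonuclease, fell from 121 to 73.7 TPM from P7 to P60 and was higher at 18m than at 3m, 99.6 against 74.3 TPM (limma adjusted p = 0.00386). Cxxc5, a CpG-binding protein, and Xrcc1, a repair scaffold, fell to 50.9 and 25.8 TPM at P60 from 101 and 37.5 at P7. From 3m to 18m 4 genes of this list fell, among them Tdg (42.4 to 26.9 TPM), the glycosylase gene Mbd4 (8.27 to 6.15) and Cxxc4 (2.88 to 1.95), and Apex1 alone rose, shares below or near those of all tested genes. After rescaling, the counts were 5 lower and 2 higher in P60 vs P7 and 1 lower and 3 higher in 18m vs 3m.

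Another list held 15 tested genes of other methyl-CpG readers, CpG-binding proteins and their relatives, not all of which bind CpG. Of these, 3 fell from P7 to P60 and 6 from 3m to 18m, and none rose in either (list medians -0.20 and -0.34), shares below or near those of all tested genes. Mbd3, a subunit of the NuRD corepressor whose place Mbd2 takes in other NuRD complexes, fell from 161 to 105 TPM from P7 to P60 (limma adjusted p = 0.00141), as did Cxxc1 (31.0 to 23.0) and Setdb1, a histone methyltransferase (13.4 to 8.16). Kdm2a, a histone demethylase that binds unmethylated CpG, fell from 17.9 TPM at 3m to 11.4 at 18m (limma adjusted p = 0.000877), with the methyl-CpG reader Zbtb4 (5.41 to 3.73) and Baz2a (4.91 to 3.32). After rescaling, 2 were lower and 6 higher in P60 vs P7 and 1 was lower in 18m vs 3m, with list medians of -0.07 and -0.11. Of 18 NuRD and NCoR corepressor genes, 8 fell and 1 rose from P7 to P60, and 12 fell from 3m to 18m (list medians -0.35 and -0.44), or 5 and 6 lower with 2 higher in each after rescaling. The deacetylase genes Hdac1, Hdac2 and Hdac3 fell from 109, 86.6 and 111 TPM at P7 to 81.8, 50.3 and 78.4 at P60 and Gatad2a from 21.9 to 12.7, while Mta1 (7.57 to 3.58), Ncor1 (106 to 76.8), Tbl1xr1 (12.4 to 7.68) and Chd3 (12.7 to 5.27) fell from 3m to 18m.

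Of 13 genes of the S-adenosylmethionine cycle, which supplies the methyl donor and clears its product, 7 rose and 3 fell from P7 to P60 (list median log2 0.29), and 1 rose and 5 fell from 3m to 18m (-0.12). Adk, adenosine kinase, an astrocyte enzyme that clears adenosine, rose from 228 to 428 TPM from P7 to P60 (limma adjusted p = 0.000188), and also from 304 at 3m to 421 at 18m (limma adjusted p = 0.0133). Ahcy, which hydrolyses S-adenosylhomocysteine, fell from 21.6 to 14.4 TPM from P7 to P60, while the related genes Ahcyl1 and Ahcyl2 rose from 194 to 315 and from 23.6 to 45.4. From 3m to 18m Ahcyl1 fell from 334 to 210 TPM, Ahcyl2 from 40.6 to 19.6 and Mtr, methionine synthase, from 3.33 to 2.18. After rescaling, 7 rose and 2 fell from P7 to P60, and 4 rose and 2 fell from 3m to 18m.

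Of 11 genes that make or use 2-oxoglutarate, the cosubstrate of the Tet enzymes, or its competitors, 2 rose and 1 fell from P7 to P60 and 4 fell from 3m to 18m (list medians -0.03 and -0.19), shares below or near those of all tested genes. Idh1 fell from 234 to 147 TPM from P7 to P60 (limma adjusted p = 0.000384), while mitochondrial Idh2 rose from 330 to 407 and Sdha from 241 to 301. From 3m to 18m Sdha fell from 311 to 218 TPM, Ogdh from 77.2 to 51.5, and the 2-hydroxyglutarate dehydrogenase gene D2hgdh from 15.1 to 10.8. After rescaling, 4 rose and 1 fell in P60 vs P7, and 3 rose and 3 fell in 18m vs 3m. Of 14 germline genes that promoter methylation usually keeps silent, only Dazl passed the filter of 1 TPM in 3 libraries. At P7 it averaged 0.411 ± 0.482 TPM (SD, n = 4) and by P60 it had risen to 1.52 ± 0.417 (SD, n = 3; limma adjusted p = 0.0141). At 3m it averaged 1.43 ± 0.739 TPM (SD, n = 5) and by 18m it had fallen to 0.215 ± 0.181 (SD, n = 4; limma adjusted p = 0.00494). These levels lie near the filter, and both comparisons cross ranges of genes at 0. In 18m vs P7, ages in the same range, Dazl was not called (limma adjusted p = 0.665). Whether its promoter methylation differed was not tested.

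Genes whose mean levels over the 9 ages were most like each of the 9 were ranked by Pearson's r of the age means in log2(TPM + 1), among 3568 candidates. Nearest to Dnmt1 were Jpt2 (0.990), Sephs1 (0.989) and the mitotic kinesin gene Kif23 (0.987), and nearest to Uhrf1 were Rbl1, a relative of the retinoblastoma gene (0.984), Vit (0.979) and Tox3 (0.972). Nearest to Dnmt3a were Zfp973 (0.970), Ppp1r13b (0.957) and Atp2a2 (0.954), and nearest to Dnmt3b were Nubp1 (0.934), Timp1 (0.930) and Rcn1 (0.924). Elk4 led for both Tet1 (0.983) and Tet3 (0.980), followed by Smarcc1 (0.965) and Arap2 (0.952) for Tet1 and by Ddx6 (0.941) and Zmiz1 (0.941) for Tet3, while Ubr1 (0.980), Syde2 (0.972) and Cds2 (0.970) led for Tet2. For Mbd1 they included Atrx (0.953) and Trip12 (0.946), and for Mbd2 they were Cnnm3 (0.970), Fam189a2 (0.938) and Selenon (0.931). Among the 9 genes the most alike were Dnmt1 and Uhrf1 (0.965) and Tet1 and Tet3 (0.954), and the least alike were Dnmt3b and Tet2 (-0.557). With 9 points chosen as the highest of many, these values are descriptions only.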

How the data were processed

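The authors deposited TPM per gene and library, 1 column for each of the 34 libraries, each summing to 1e+06. Per the submitters' processing notes, STAR 2.7.1a, RSEM 1.2.28, Trim Galore 0.6.4 and DESeq2 1.36.0 were used with build mm10, and no roles are given. TPM keep no read counts, so depth is unknown and no counting interval is given.

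A minimum of 1 TPM in 3 or more libraries left 14590 genes, all 9 among them, for tests on log2(TPM + 1), which understates changes of low genes. Limma 3.58.1 (R 4.3.3; trend and robust settings, statmod 1.5.0) fitted a mean for each age to the 34 libraries, with Benjamini-Hochberg adjustment over all genes tested and calls at an adjusted p under 0.05. The script was tested on simulated data. Folds are ratios of mean TPM. "Rose", "fell", "higher" and "lower" in counts refer to calls.

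The genes and lists were chosen with earlier results of these data known. Named genes were the 9, up to 4 called genes of smallest p per pathway list in P60 vs P7 and 18m vs 3m, and the 3 nearest patterns per gene (at least 5 TPM at 1 age, SD of age means at least 0.25); some genes so named are not reported here. Alternatives were a pseudocount of 0.1 TPM, no filter or one of 5 TPM, median-of-ratios and quantile scaling, array weights, a replicate block, covariates, only the ages compared, and each library left out. Positions come from GENCODE (GRCm38) and promoters from RefSeq. Figures were drawn in Python 3.11.15 with pandas 2.3.3 and matplotlib 3.10.9. Libraries with identical values did not occur (0 pairs).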

Additional observations from a re-analysis of the deposited data

Results flagged for a closer look

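Of 45 groups of 4 or 5 libraries tested for a single library far from the others, 5 had one, and chance alone marks about 1 in 20. Uhrf1 in 3m replicate 4 was at 10.96 TPM, above the other 4 libraries at 5.99 to 7.05. Uhrf1 in 6m replicate 4 was at 6.69 TPM, above the others at 3.28 to 3.95. Both libraries were also the highest of their ages for the mean of the 32 cell cycle genes. Dnmt1 in 18m replicate 1 was at 2.78 TPM, below the others at 4.54 to 4.86, in the library that was lowest of its age for 8 of the 9 genes. Tet3 in P7 replicate 3 was at 6.63 TPM against 5.88 to 5.91, and in P14 replicate 4 at 5.96 TPM against 4.75 to 4.93.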

How the results depend on the processing

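Counts of the 9 genes called moved most with the scaling and the fit. In P60 vs P7 (4 genes) array weights gave 7 and covariates for neuron and oligodendrocyte transcripts 2, with 3565 of all genes. In 18m vs 3m (7 genes, 5476 of all) median-of-ratios and quantile scaling gave 3 each, beside 36.6% and 26.9% of all tested genes. A term for genes at 0 gave 0 there with 297 of all genes. In 18m vs P7 (6 genes, 4316 of all) both scalings gave 2, beside 20.0% and 18.8% of all tested genes, and a fit of only those ages 3. Over all genes quantile scaling gave 2739 and array weights 6739 in that comparison. In 18m vs P60 all-gene calls (2010) were 3106 with array weights, 788 with covariates, 1027 with the term for genes at 0 and 1151 with only those ages. In P14 vs P7 array weights gave 6 and covariates 1. Array weights gave 1 in P21 vs P14, 2 in P60 vs P28, 1 in 6m vs 3m and 1 in 18m vs 12m. The term for genes at 0 gave 1 in P21 vs P14 and 1 in 3m vs P60. Quantile scaling gave 1 in 6m vs 3m and 1 in 12m vs 6m, beside 12.7% and 0.336% of all tested genes. Only the ages compared gave 0 in 6m vs 3m and 0 in 18m vs 12m. Libraries of 1 range of genes at 0, a setting chosen after seeing the data, gave 0 in 6m vs 3m. Where no number over all tested genes stands beside a count, that count has no background to be read against. The cause of these moves was not tested.

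The called falls of Tet1 and Tet2 in 18m vs 3m turned sign with the term for genes at 0 (0.0436 and 0.0659), and the cause was not tested. Of differences that were not called, signs turned for Tet3 in P60 vs P7 (0.00018 after median of ratios), Dnmt3b in 18m vs 3m (-0.26 with covariates) and Tet2 in 18m vs P7 (0.12 after median of ratios, 0.10 after quantile scaling, 0.00082 with array weights). Among the other settings, 331 values of single genes kept direction and call, 13 gained and 52 lost the call, and 7 turned.

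Leaving out each library in turn gave 3 to 4 genes in P60 vs P7 (6173 to 6995 of all genes) and 4 to 8 in 18m vs 3m (3471 to 5599 of all genes, the lowest without 18m replicate 1). It gave 2 to 7 in 18m vs P7 (2 without 18m replicate 1; 2989 to 4456 of all) and 0 to 1 in 18m vs P60 (927 to 2020 of all). In the steps between neighbouring ages it gave 1 to 2 in P14 vs P7, 0 to 1 in P21 vs P14, 0 to 1 in P60 vs P28, 0 to 2 in 6m vs 3m, 0 to 1 in 12m vs 6m and 2 to 4 in 18m vs 12m. Numbers over all genes are not given for these steps. Dnmt3b in 18m vs 3m ran from -0.069 to 0.21. Where that left few libraries at an age, the spread was pooled over all ages.

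The labels do not say whether libraries with the same replicate number at different ages shared any processing. In 119 pairs with the same number, deviations from the age means correlated at 0.00226 on average, and in 392 pairs with different numbers at -0.000304. Such averages cannot tell whether some of them did. With a replicate block 4 genes were called in P60 vs P7, 8 in 18m vs 3m, 7 in 18m vs P7 and 4 in 18m vs 12m. Mbd1 was newly called in 18m vs 3m (-0.37, limma adjusted p = 0.0371) and in 18m vs P7 (-0.37, 0.0496). Shares of all tested genes called with that block are not given here, so its counts have no background to be read against. Depth is unknown from TPM, so a floor for the low gene Dnmt3b could not be set.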
